A study of Mus musculus with 4 samples.

Results

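Colony-stimulating factors are secreted proteins that keep myeloid cells alive and direct their growth. Of them and their receptors, 8 genes are described here out of 55357 in the feature list, matched by gene symbol, each to 1 row: the ligands Csf1, Il34, Csf2 and Csf3 and the receptor genes Csf1r, Csf2ra, Csf2rb and Csf3r. CSF1 and IL-34 both bind the receptor tyrosine kinase CSF1R, on which microglia depend for survival. CSF2 (GM-CSF) binds a receptor made of the CSF2RA chain and the shared beta chain CSF2RB, and CSF3 (G-CSF) binds CSF3R, the receptor best known from neutrophils; both signal through JAK kinases and STAT proteins.

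Wild-type mice had an ischemic stroke, received hydrogel microspheres in the infarct cavity on day 5 and gave their ipsilateral brain hemisphere for single-cell RNA sequencing on day 14. MAPS stands for microspheres alone. In the other 3 groups the microspheres also carried extracellular vesicles (EV), which the series describes as derived from reactive astrocytes. They are labelled UT EV+MAPS, then IL-1a TNFa C1q EV+MAPS for the second, then IL-4 C1q EV+MAPS for the third. UT is read here as untreated astrocytes, so the series' general description may not hold for the vesicles of UT EV+MAPS. Each group is 1 library, the number of animals behind a library is not stated, and all 4 groups had a stroke. With no replicates no test was made, and effects of a group and of its one library cannot be separated.

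Single cells were read as counts of unique molecular identifiers (UMIs). After filters on UMIs, genes and mitochondrial share, 55902 cells were kept, and 45440 of them took 1 of 22 classes by marker genes, none of which is one of the 8 genes. Levels are given as CPM, the share of a class's UMIs that belong to a gene, scaled to counts per 1e6, and all intervals are 95% intervals that cover counting error only. A ratio was called past 1.5-fold when its whole interval lay beyond 1.5-fold, the pair of libraries held at least 30 UMIs, and both held at least 50 cells of the class. Because the chemistry reads the 3′ end, levels are compared within a gene and not between genes.

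The MAPS library stood apart from the EV libraries over all genes. The kept cells held 44971807 to 81077713 UMIs per library, most in MAPS. Its median kept cell had 4557 UMIs against 2480 to 2673.5, its mitochondrial share was 1.42% against 0.550% to 0.575%, and 92.0% of its kept cells took a class against 76.5% to 78.9%. Over all genes in microglia, the median log2 ratio to MAPS was −1.06 in UT EV+MAPS, −1.29 in IL-1a TNFa C1q EV+MAPS and −1.13 in IL-4 C1q EV+MAPS, and for UT EV+MAPS it went from −0.56 among genes with the shortest transcripts to −1.46 among those with the longest, in 4 equal groups by length. The library IL-1a TNFa C1q EV+MAPS lacked barcodes under 1233 UMIs, whereas the others reached down to 500, and 333 barcodes occurred in more than 1 library. Against UT EV+MAPS the microglial median was closer to 0, at −0.18 for IL-1a TNFa C1q EV+MAPS, and for IL-4 C1q EV+MAPS it was −0.06.

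Upstream sequence was available in the RefSeq table (GRCm38.p6) for 4 of the 8 genes, and 3 windows are shown: those of Csf3r and Csf2ra, which hold a searched motif, and that of Csf2, the scarce ligand read from T cells. The fourth, of Csf1, also read mainly from myeloid cells, holds 0 matches of every motif searched and is not printed. Each is the 250 bases before the annotated start, 5′ to 3′ on the gene's strand: chr4:126024409-126024658 (plus strand) for Csf3r, chr19:61228419-61228668 (minus strand) for Csf2ra and chr11:54249900-54250149 (minus strand) for Csf2. Capitals mark the motifs searched on both strands: GAGGAA, the core bound by ETS factors such as PU.1, GGAAAA, the NFAT core, and TGANTCA, the AP-1 site. On the other strand GAGGAA reads TTCCTC and GGAAAA reads TTTTCC.
Csf3r: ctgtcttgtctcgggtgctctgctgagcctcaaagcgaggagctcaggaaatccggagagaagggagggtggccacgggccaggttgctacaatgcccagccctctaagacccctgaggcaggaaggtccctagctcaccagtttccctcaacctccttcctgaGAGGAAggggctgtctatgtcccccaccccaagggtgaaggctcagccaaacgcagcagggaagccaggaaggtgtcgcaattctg
Csf2ra: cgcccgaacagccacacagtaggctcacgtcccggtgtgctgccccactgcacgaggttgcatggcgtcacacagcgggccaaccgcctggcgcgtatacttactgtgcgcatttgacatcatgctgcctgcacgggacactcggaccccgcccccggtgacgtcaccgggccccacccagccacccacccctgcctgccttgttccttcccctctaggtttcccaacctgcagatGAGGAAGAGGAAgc
Csf2: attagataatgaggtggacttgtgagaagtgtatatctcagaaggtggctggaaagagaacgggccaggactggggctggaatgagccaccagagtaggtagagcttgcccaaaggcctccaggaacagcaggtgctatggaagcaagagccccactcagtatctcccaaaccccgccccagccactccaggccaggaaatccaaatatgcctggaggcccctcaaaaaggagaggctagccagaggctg
Csf3r holds GAGGAA 1 time and Csf2ra 2 times, side by side, and no searched motif lies in the Csf2 window. Among 32851 upstream windows of this length, 23.3% hold GAGGAA, 20.4% GGAAAA and 6.75% TGANTCA. A match is a stretch of letters and not a shown binding site, and the windows' build is older than GRCm39, on which the counts were made per the submitters' processing notes.

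The genes were read from different lineages. The 4 receptor genes were read mainly from microglia and other myeloid cells, and Csf1 mainly from microglia. Il34 was read from mural cells and fibroblasts, Csf2 among the classes mostly from T cells, and Csf3 from almost no cell. The kept cells held 198075 UMIs of Csf1r, 31802 of Csf1, 22784 of Csf3r, 19117 of Csf2ra, 9449 of Csf2rb, 434 of Il34, 251 of Csf2 and 6 of Csf3. Microglia held 90.7% of the Csf1r UMIs of MAPS and 73.4% to 78.9% of those of the EV libraries. For Csf2ra and Csf2rb the microglial part was smaller in the EV libraries, from 44.4% to 56.0%, and cells outside every class held 30.6% to 38.6%. T cells held 17.6% of the Csf2 UMIs of MAPS, 31.2% in UT EV+MAPS, 75.6% in IL-1a TNFa C1q EV+MAPS and 28.8% in IL-4 C1q EV+MAPS. Cells outside every class held 52.9%, 52.1%, 19.7% and 61.0% of them in the same order.

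**Figure D1:**
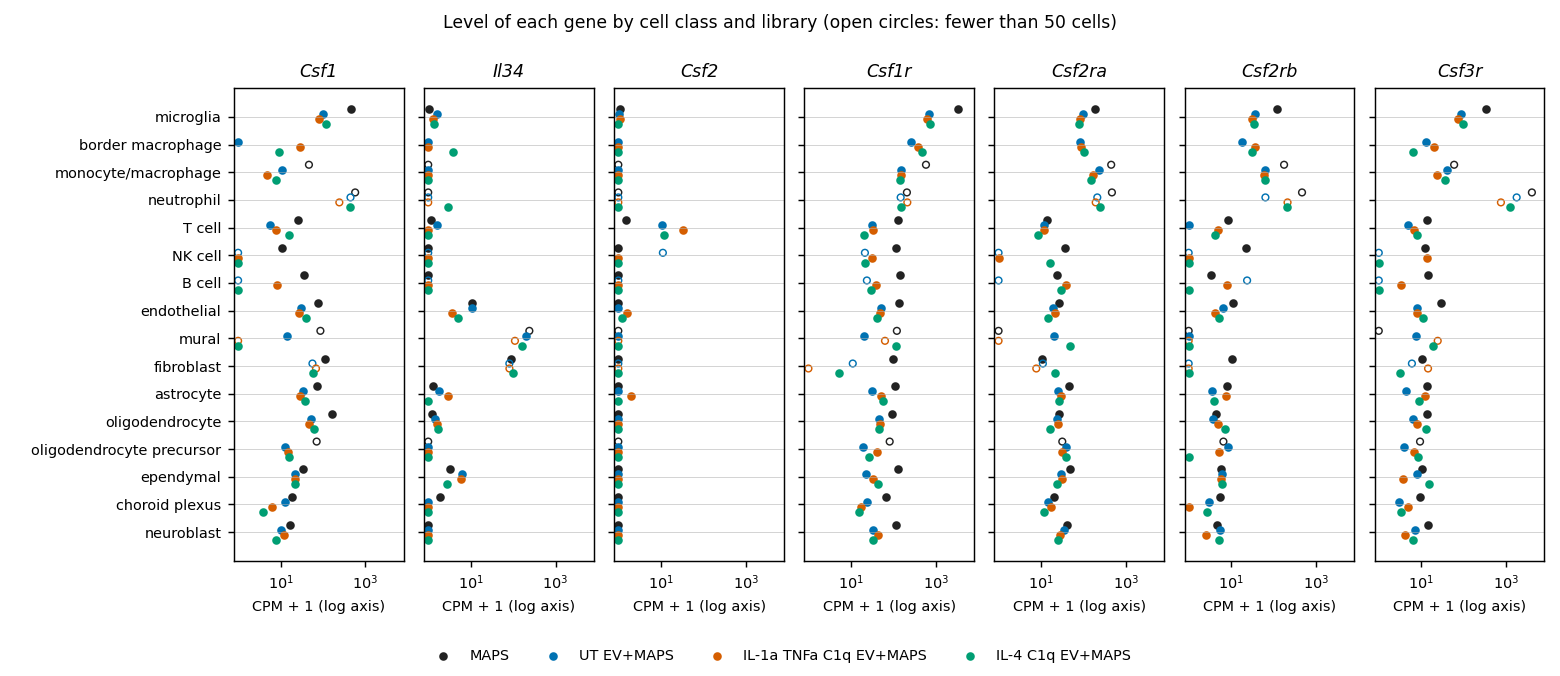
CPM + 1 on a log axis for 7 of the genes (Csf3 had too few UMIs) in 16 cell classes, with 1 point per library; filled points have at least 50 cells of the class. Csf1r is highest in microglia and Csf3r in neutrophils, Il34 stands out in mural cells and fibroblasts, and Csf2 in T cells.

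Csf1r (ENSMUSG00000024621), the receptor of CSF1 and IL-34, was highest in microglia in every library. Its microglial level was 3271 CPM in MAPS, 710 in UT EV+MAPS, 605 in IL-1a TNFa C1q EV+MAPS and 717 in IL-4 C1q EV+MAPS. A Csf1r UMI was found in 99.8% of MAPS microglia and in 86.7%, 81.0% and 84.7% of those of the EV libraries, and at a fixed 1000 UMIs per cell in 94.7%, 54.0%, 48.8% and 54.6%. MAPS lay above all 3 EV libraries without overlap of intervals, and the intervals of UT EV+MAPS overlapped those of IL-4 C1q EV+MAPS. Over the 3 EV libraries, each a treatment of its own, Csf1r had 678 ± 62.5 CPM (SD, n = 3) in microglia, 378 ± 112 in border macrophages and 148 ± 6.5 in monocytes/macrophages. Neutrophils, with under 50 cells in all libraries but one, were at 148, 213 and 152 CPM, which overlaps monocytes/macrophages.

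Border macrophages, which line the vessels and meninges, also held Csf1r, at unequal levels among the EV libraries. They had 260 CPM in UT EV+MAPS (106 UMIs in 75 cells), 391 in IL-1a TNFa C1q EV+MAPS (124 in 81) and 483 in IL-4 C1q EV+MAPS (175 in 91). MAPS gave 4 such cells and no level. The ratio of IL-4 C1q EV+MAPS to UT EV+MAPS was 1.86 (1.45 to 2.39), which just missed the 1.5-fold rule. It was past the rule at 1.94 (1.51 to 2.52) without the cell highest for the gene and at 1.95 (1.59 to 2.42) with a gate margin of 0.1, and it was 1.40 (0.87 to 2.30) in cells thinned to 1000 UMIs.

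Blood-derived monocytes/macrophages held Csf1r at 151 CPM in UT EV+MAPS, at 152 in IL-1a TNFa C1q EV+MAPS and at 140 in IL-4 C1q EV+MAPS, with overlapping intervals. Cells that are not myeloid held low levels. T cells, which should lack the gene, had 126 CPM in MAPS, 30.8 in UT EV+MAPS, 32.3 in IL-1a TNFa C1q EV+MAPS and 19.0 in IL-4 C1q EV+MAPS, with a UMI in 34.9%, 4.41%, 4.76% and 3.20% of cells. Over oligodendrocytes, astrocytes and endothelial cells of the EV libraries, Csf1r ranged from 30.5 to 54.9 CPM, and the part of free RNA from microglia in these levels was not tested.

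Csf1 (ENSMUSG00000014599), the main ligand of CSF1R, was found in neutrophils, microglia, oligodendrocytes and fibroblasts. In microglia it had 465 CPM in MAPS, 97.5 in UT EV+MAPS, 79.0 in IL-1a TNFa C1q EV+MAPS and 120 in IL-4 C1q EV+MAPS. The 3 EV values do not overlap, with IL-4 C1q EV+MAPS the highest and IL-1a TNFa C1q EV+MAPS the lowest. The ratio to UT EV+MAPS was 1.23 (1.15 to 1.31) for IL-4 C1q EV+MAPS and 0.811 (0.754 to 0.871) for IL-1a TNFa C1q EV+MAPS, both inside 1.5-fold. The share of microglia with a Csf1 UMI was 15.9%, 13% and 17% in the EV libraries, in the same order.

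In oligodendrocytes, the myelin-forming cells, Csf1 had 162 CPM in MAPS, 50.7 in UT EV+MAPS, 47.1 in IL-1a TNFa C1q EV+MAPS and 61.1 in IL-4 C1q EV+MAPS. Oligodendrocytes of UT EV+MAPS held 12.1% of that library's Csf1 UMIs, second to microglia among the classes. Endothelial cells had 77.2, 28.9, 26.2 and 39.4 CPM in the same order of libraries, with a ratio of IL-4 C1q EV+MAPS to UT EV+MAPS of 1.36 (1.06 to 1.75) that became 1.01 in thinned cells. In IL-4 C1q EV+MAPS, neutrophils had the highest Csf1 level of the classes: 441 CPM from 227 UMIs in 380 cells, where 31.3% of cells held a UMI. The other libraries had 15, 40 and 49 neutrophils, too few for the ratio rule, at 572 (MAPS, 11 UMIs), 444 (UT EV+MAPS, 21) and 242 CPM (IL-1a TNFa C1q EV+MAPS, 25). With a floor of 1233 UMIs per cell in every library, Csf1 in neutrophils of UT EV+MAPS was 696 CPM from 17 UMIs, and 413 in IL-4 C1q EV+MAPS.

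Il34 (ENSMUSG00000031750), the second ligand of CSF1R, came mainly from cells of the vessel wall and from fibroblasts. Mural cells (pericytes and smooth muscle cells) had 241 CPM in MAPS from 14 UMIs in 18 cells, 197 in UT EV+MAPS from 30 UMIs, 110 in IL-1a TNFa C1q EV+MAPS from 14 and 164 in IL-4 C1q EV+MAPS from 28. All 4 intervals overlap, and the ratio of IL-4 C1q EV+MAPS to UT EV+MAPS was 0.834 (0.48 to 1.44). Fibroblasts had 87.2, 80.6, 80.9 and 99.8 CPM, again with overlapping intervals. Neurons, a known source of IL-34, were too few to read, with 14 cells and 3 Il34 UMIs in UT EV+MAPS.

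Endothelial cells held Il34 at 9.83 CPM in MAPS, 9.91 in UT EV+MAPS, 2.65 in IL-1a TNFa C1q EV+MAPS and 4.03 in IL-4 C1q EV+MAPS. By the rule, IL-1a TNFa C1q EV+MAPS was lower than UT EV+MAPS, with 9 against 36 UMIs and a ratio of 0.267 (0.113 to 0.565). With a gate margin of 0.1 the ratio was 0.465 (0.264 to 0.793) and no longer past the rule, with a margin of 0.3 the pair held too few UMIs for a ratio, and with the margin of 0.1 the ratio of IL-4 C1q EV+MAPS was 0.328 (0.179 to 0.576) in place of 0.407 (0.217 to 0.735). Of the 22 Il34-positive endothelial cells of UT EV+MAPS, 17 carried at least 2 mural markers, against 4.90% of the Il34-negative ones. The 10 mural markers summed to 949 CPM in endothelial cells of MAPS, with 1 at 0, where Il34 was near its level in UT EV+MAPS. They summed to 529 CPM in UT EV+MAPS, 422 in IL-1a TNFa C1q EV+MAPS and 451 in IL-4 C1q EV+MAPS, with none at 0. Fibroblast markers summed to 157, 36.0, 20.9 and 39.8 CPM in the same order, from MAPS to IL-4 C1q EV+MAPS. The part of both in the Il34 difference was not tested.

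**Figure D2:**
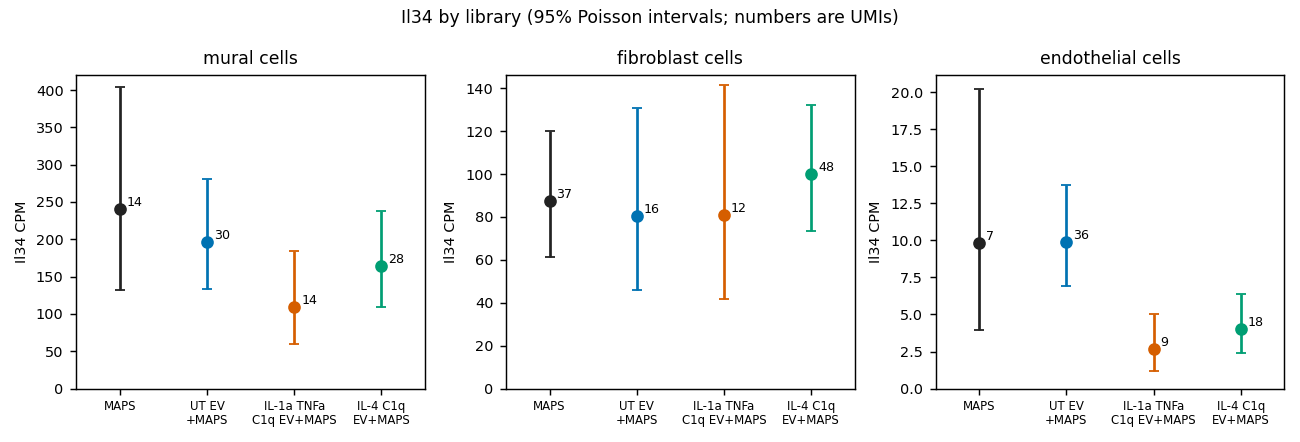
Il34 CPM in mural, fibroblast and endothelial cells by library, each panel on its own linear axis from 0, with 95% Poisson intervals and the UMIs behind each point. Mural and fibroblast intervals overlap across libraries; the endothelial level of IL-1a TNFa C1q EV+MAPS, from 9 UMIs, lies below that of UT EV+MAPS, from 36.

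Of the 2 other IL-34 binding proteins listed, Ptprz1, a receptor phosphatase of glia, was read in astrocytes at 2223 CPM in MAPS, 1116 in UT EV+MAPS, 882 in IL-1a TNFa C1q EV+MAPS and 1090 in IL-4 C1q EV+MAPS. Oligodendrocyte precursors of the EV libraries held it at 1679, 1196 and 1660 CPM. In microglia, Ptprz1 was at most 26.1 CPM. Sdc1, a heparan sulfate proteoglycan, was at 54.2 CPM in fibroblasts of MAPS and at most 0.86 CPM in microglia.

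Csf2ra (ENSMUSG00000059326), the ligand-specific chain of the GM-CSF receptor, was highest in neutrophils and monocytes/macrophages and next in border macrophages and microglia. Monocytes/macrophages had 232 CPM in UT EV+MAPS, 165 in IL-1a TNFa C1q EV+MAPS and 153 in IL-4 C1q EV+MAPS. UT EV+MAPS was the highest, and the ratios to it were 0.712 (0.542 to 0.938) and 0.661 (0.513 to 0.856), neither past the rule. In microglia Csf2ra had 188 CPM in MAPS and 94.7, 83.7 and 76.8 in the EV libraries, with the ratio of IL-4 C1q EV+MAPS to UT EV+MAPS at 0.812 (0.753 to 0.875). In cells thinned to 1000 UMIs that ratio was 0.921 (0.796 to 1.06).

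Cells that are not myeloid held Csf2ra at low levels, at 15.1 to 25.2 CPM in oligodendrocytes, 23.6 to 39.6 in neuroblasts and 7.61 to 12.9 in T cells over the 4 libraries. The part of free RNA from myeloid cells in these levels was not tested.

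Csf2rb (ENSMUSG00000071713), the shared beta chain, had 122 CPM in microglia of MAPS, 35.2 in UT EV+MAPS, 29.8 in IL-1a TNFa C1q EV+MAPS and 32.9 in IL-4 C1q EV+MAPS. Monocytes/macrophages held it at 60.9, 58.8 and 63.0 CPM in the EV libraries, values that differ by less than their counting error. Neutrophils of IL-4 C1q EV+MAPS had 208 CPM, and dendritic cells and plasmacytoid dendritic cells also carried it. Csf2rb2, a near-identical mouse copy that responds to IL-3 and is counted as its own gene, had 40.8 CPM in microglia of MAPS and 8.09 to 9.18 in the EV libraries. Reads that fit both copies could be split or dropped by the counting, so the levels of both are uncertain.

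Both chains of the GM-CSF receptor were found in the same cell in 24.6% of microglia in MAPS and in 2.93%, 2.47% and 2.40% in the EV libraries, in the same order as above. Among monocytes/macrophages the share was 12.5%, 11.4% and 13.5% in that order. The product of the 2 chains' own shares was 20.9%, 2.39%, 1.74% and 1.60% in microglia of the 4 libraries, and in monocytes/macrophages of the EV libraries 13.8%, 7.93% and 11.9%. These shares move with depth, and the parts of free RNA and of doublets in them were not tested.

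Csf3r (ENSMUSG00000028859), the G-CSF receptor, was highest in neutrophils: 4058 CPM in MAPS (78 UMIs in 15 cells), 1775 in UT EV+MAPS (84 in 40), 755 in IL-1a TNFa C1q EV+MAPS (78 in 49) and 1232 in IL-4 C1q EV+MAPS (634 in 380). The 4 intervals do not overlap, MAPS being the highest and IL-1a TNFa C1q EV+MAPS the lowest. With the minimum lowered to 10 cells, the ratio of IL-1a TNFa C1q EV+MAPS to UT EV+MAPS was past the rule at 0.425 (0.308 to 0.586). Neutrophils are small in UMIs, and the 1233-UMI floor of IL-1a TNFa C1q EV+MAPS bears on them: with that floor everywhere, the levels were 4513, 1514, 755 and 1032 CPM, from 6, 16, 49 and 168 cells. The intervals of IL-4 C1q EV+MAPS then overlapped those of both other EV libraries, and the ratio of IL-1a TNFa C1q EV+MAPS to UT EV+MAPS was 0.499 (0.333 to 0.759), no longer past the rule.

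Microglia also held Csf3r, at 340 CPM in MAPS, 84.5 in UT EV+MAPS, 72.3 in IL-1a TNFa C1q EV+MAPS and 93.4 in IL-4 C1q EV+MAPS. IL-4 C1q EV+MAPS was 1.11 (1.03 to 1.19) times UT EV+MAPS and IL-1a TNFa C1q EV+MAPS 0.857 (0.794 to 0.924) times. The 10 neutrophil markers summed to 25.1, 12.8, 178 and 104 CPM in microglia of the same libraries, with 1, 1, 0 and 1 of them at 0, and their part was not tested. In oligodendrocytes the ratio of IL-4 C1q EV+MAPS to UT EV+MAPS was 2.22 (1.42 to 3.52) for Csf3r, from 54 and 34 UMIs, and 2.38 (1.27 to 4.63) for Csf2rb, from 29 and 17, both short of the rule. Neutrophil markers there summed to 0.618 CPM in MAPS, 2.82 in UT EV+MAPS, 60.3 in IL-1a TNFa C1q EV+MAPS and 168 in IL-4 C1q EV+MAPS, with 7, 6, 1 and 2 of 10 at 0, and their part was not tested.

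Against MAPS, the receptor genes and Csf1 were lower in the microglia of every EV library. Csf1, Csf1r, Csf2ra, Csf2rb and Csf3r were all past 1.5-fold lower, 5 of 5 in each comparison, against a background where 51.8% of all genes tested in microglia were lower by the same rule in UT EV+MAPS, 57.9% in IL-1a TNFa C1q EV+MAPS and 53.6% in IL-4 C1q EV+MAPS. Ratios of UT EV+MAPS to MAPS were 0.217 for Csf1r (0.213 to 0.221), 0.210 for Csf1 (0.199 to 0.220), 0.248 for Csf3r (0.235 to 0.262), 0.288 for Csf2rb (0.264 to 0.313) and 0.504 for Csf2ra (0.477 to 0.532). Relative to the median gene, the first 4 were still lower, at 0.453, 0.438, 0.518 and 0.601, but Csf2ra was at 1.05 (0.996 to 1.11). By the same scaling Csf2ra was at 1.09 in IL-1a TNFa C1q EV+MAPS and 0.897 in IL-4 C1q EV+MAPS, so it was not lower than the median gene in every EV library. This scaling does not take transcript length into account. Median transcript lengths were 2097 bases for Csf1, 2040.5 for Csf3r, 1405.5 for Csf1r, 1240 for Csf2rb and 990 for Csf2ra, the shortest of the 5. The part of the trend by length in these ratios was not tested. Microglial markers were lower too: P2ry12 had 1438 CPM in MAPS and 241 to 290 in the EV libraries, Tmem119 972 against 256 to 332, and Cx3cr1 3064 against 800 to 1098. Within the same microglia the 10 monocyte/macrophage markers, none at 0, summed to 1905 CPM in MAPS, 2898 in UT EV+MAPS, 4782 in IL-1a TNFa C1q EV+MAPS and 3099 in IL-4 C1q EV+MAPS. The part of both marker sets in the differences was not tested.

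**Figure D3:**
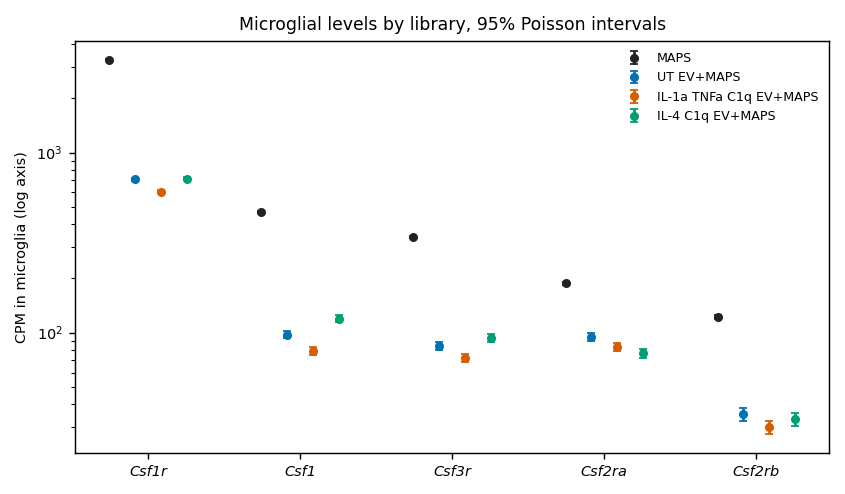
CPM of 5 genes in microglia on a log axis, 1 point per library with its 95% Poisson interval (often smaller than the point). MAPS is the highest for each gene; among the EV libraries Csf1 is highest in IL-4 C1q EV+MAPS, and Csf2ra in UT EV+MAPS.

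In cells thinned to 1000 UMIs, 70.7% of MAPS microglia had a P2ry12 UMI, against 26.2% to 29.0% in the EV libraries. P2ry12 is itself a marker of the class, and its level was lower in the EV libraries. A draw of 1000 UMIs therefore misses it more often there. The split by a P2ry12 UMI thus does not separate kinds of microglia or hold their state fixed. Csf1r differed within both groups of cells. With a P2ry12 UMI its thinned level was 4143 CPM in MAPS and 951, 843 and 972 in the EV libraries, and without one it was 2823 against 787, 676 and 777. Csf1 was also lower in the EV libraries within both groups of cells. Unlike Csf1r, it had higher values in cells without a P2ry12 UMI than in cells with a P2ry12 UMI. In MAPS it was at 273 CPM in microglia with a P2ry12 UMI (258 to 288) and 596 in those without (563 to 630). In IL-4 C1q EV+MAPS the matching Csf1 values were 75.2 (61.4 to 91.2) and 107 (96.8 to 118), also without overlap. They were 66.2 (53.4 to 81.2) and 87.7 (78.0 to 98.3) in UT EV+MAPS, and in IL-1a TNFa C1q EV+MAPS 51.7 (40.8 to 64.7) and 66.7 (59.1 to 75.1), with overlapping intervals in both.

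Over all classes with at least 50 cells in both libraries, UT EV+MAPS against MAPS gave 0 ratios higher and 18 lower of 35 tested, where 8% of all genes and classes were higher and 32.1% lower. IL-1a TNFa C1q EV+MAPS gave 1 higher, Csf2 in T cells, and 18 lower of 37, with 9.49% and 38.7% in the background. IL-4 C1q EV+MAPS gave 0 higher and 18 lower of 39, with 8.11% and 32% in the background. Csf2 in T cells was tested in 1 of these comparisons only, since the other pairs held under 30 UMIs. Its level was above that of MAPS in each EV library. Scaled to the median ratio of all genes, 8 ratios were past the rule in either direction in each comparison, and 10 in cells thinned to 1000 UMIs. The share of all genes past the rule was not worked out at these settings, so no background stands beside these counts. These comparisons share the MAPS library, and many of the lower ratios are Csf1r in classes that are not myeloid.

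Among the EV libraries few ratios were past the rule. IL-1a TNFa C1q EV+MAPS against UT EV+MAPS gave 1 higher (Csf2 in T cells) and 1 lower (Il34 in endothelial cells) of 35 tested, where 0.695% of all genes and classes were higher and 0.706% lower. IL-4 C1q EV+MAPS against UT EV+MAPS gave 0 of 37, where 0.797% were higher and 0.433% lower. A ratio inside the rule does not show that levels were alike: for Csf1 in T cells, from 23 and 7 UMIs, the ratio of IL-4 C1q EV+MAPS to UT EV+MAPS was 3.24 with an interval of 1.35 to 8.95. Thinned levels were 7.44 and 4.55 CPM, from 5 and 3 UMIs. In these T cells of IL-4 C1q EV+MAPS and UT EV+MAPS, the 10 neutrophil markers summed to 252 and 23.8 CPM (2 and 5 at 0) and the 10 monocyte/macrophage markers to 1949 and 734 (1 and 2 at 0), and their part was not tested.

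**Figure D4:**
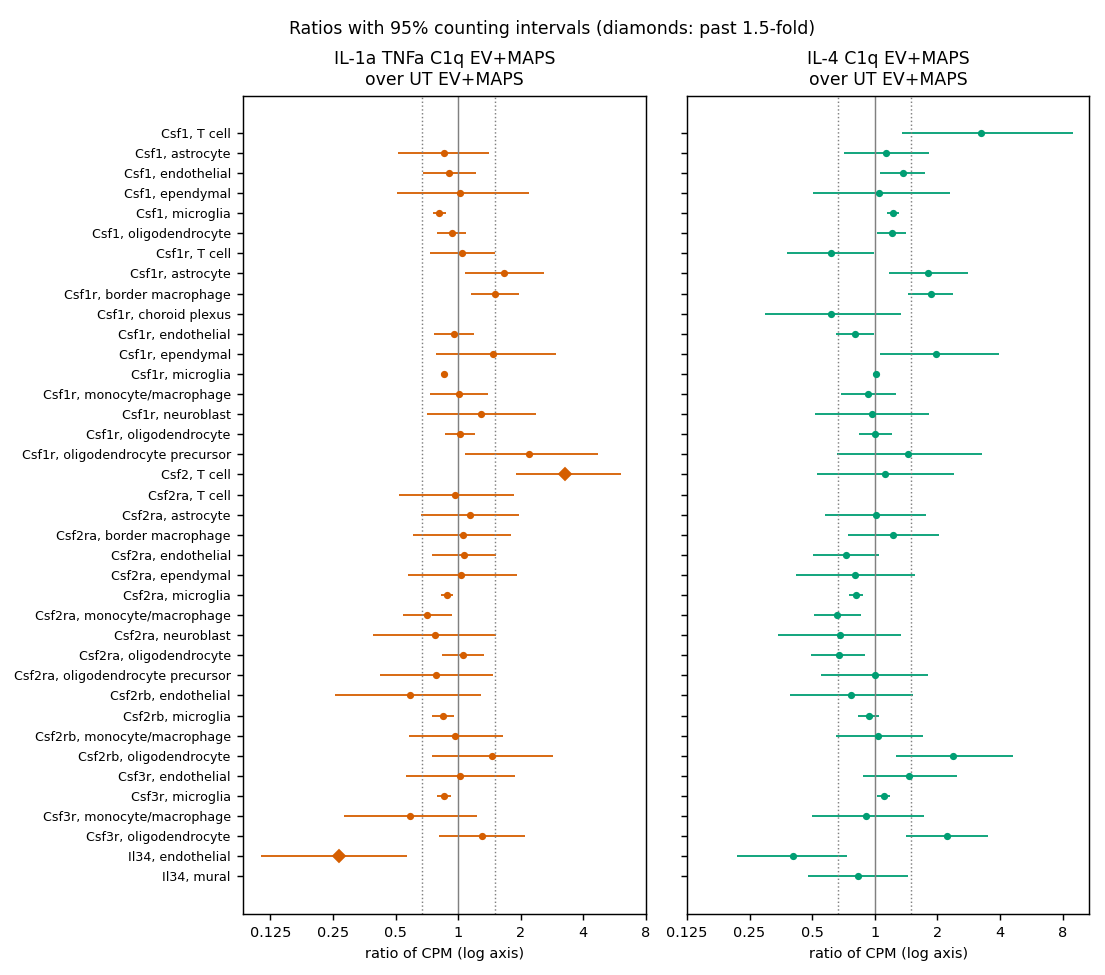
Ratio of CPM to UT EV+MAPS on a log axis for each gene and class with at least 30 UMIs in the pair, with 95% counting intervals; dotted lines mark 1.5-fold either way and diamonds the ratios past it. Of 35 ratios for IL-1a TNFa C1q EV+MAPS, Csf2 in T cells lies above and Il34 in endothelial cells below, and none of 37 for IL-4 C1q EV+MAPS is past it.

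Csf2 (ENSMUSG00000018916), which encodes GM-CSF, was carried by few T cells, and its summed level turned on single cells. T cells had 0.49 CPM in MAPS from 3 UMIs, 9.64 in UT EV+MAPS from 15, 31.6 in IL-1a TNFa C1q EV+MAPS from 96 and 10.8 in IL-4 C1q EV+MAPS from 17. Microglia, which should lack the gene, had at most 0.11 CPM. Innate lymphoid cells, another known source, held 2, 6, 0 and 5 Csf2 UMIs in 3, 3, 3 and 11 cells of the same libraries, too few cells for a level. The ratio of IL-1a TNFa C1q EV+MAPS to UT EV+MAPS was 3.28 (1.89 to 6.09), and to MAPS 64.5 (21.4 to 318).

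A single T cell held 43 of the 96 UMIs of IL-1a TNFa C1q EV+MAPS. Without the highest cell of each library, the ratio to UT EV+MAPS was 2.09 (1.12 to 4.18) and no longer past the rule, and in cells thinned to 1000 UMIs it was 1.39 (0.597 to 3.62). The share of T cells with a Csf2 UMI did not follow the summed level: it was 0.167% in MAPS (2 of 1199 cells), 2.06% in UT EV+MAPS (14 of 681), 1.54% in IL-1a TNFa C1q EV+MAPS (20 of 1302) and 0.873% in IL-4 C1q EV+MAPS (6 of 687). The intervals of the 3 EV libraries overlap, at 1.13% to 3.43%, 0.941% to 2.36% and 0.321% to 1.89%. Positive cells also held unequal numbers of UMIs: 11 of the 20 positive cells of IL-1a TNFa C1q EV+MAPS held at least 2, against 1 of 14 in UT EV+MAPS and 2 of 6 in IL-4 C1q EV+MAPS. No order of the EV libraries is read from these values.

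**Figure D5:**
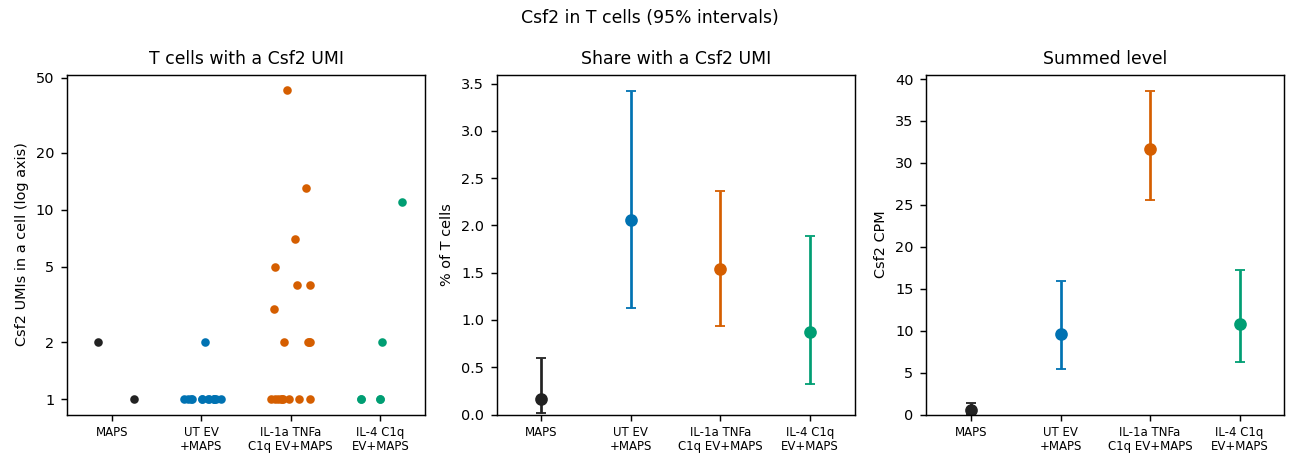
Csf2 in T cells by library: UMIs in each positive cell on a log axis (left), the share of T cells with a UMI (middle) and the summed CPM (right), with 95% exact intervals in the last 2 panels. The highest cell of IL-1a TNFa C1q EV+MAPS has 43 UMIs; its share of positive cells, 1.54%, lies below the 2.06% of UT EV+MAPS.

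The Csf2-positive T cells included cells with UMIs of IL-17 and gamma-delta T cell genes. Over the 4 libraries, Il17a, the lead cytokine of type 17 T cells, had a UMI in 20 of 42 Csf2-positive T cells (47.6%) and in 12.8% of 3827 Csf2-negative ones. Trdc, the constant region of the delta T cell receptor chain, was in 12 of 42 (28.6%) against 7.63%. Cd8a had a UMI in 0 of 42, which allows a share of cells with a UMI of up to 7.14%, against 26.0%, and Tbx21, the regulator of type 1 T cells, in 1 of 42 against 13.4%. MAPS, with 1197 of the 3827 negative and 2 of the 42 positive cells, weighs on these pooled shares: its own negative cells had Cd8a at 54.6% and Tbx21 at 33.8%. In UT EV+MAPS Cd8a was in 0 of 14 against 10.5% and Tbx21 in 1 of 14 against 5.70%. In IL-1a TNFa C1q EV+MAPS they were in 0 of 20 against 10.8% and 3.59%, and in IL-4 C1q EV+MAPS in 0 of 6 against 19.4% and 3.38%. Ifng was at 28.6% and 29.5%. The pooled counts mix libraries of unequal makeup: within IL-1a TNFa C1q EV+MAPS, Il17a was in 11 of 20 against 19.0%, in UT EV+MAPS in 4 of 14 against 18.4% and in IL-4 C1q EV+MAPS in 4 of 6 against 16.9%. Trdc was in 5 of 20 against 8.58%, in 4 of 14 against 11.2% and in 1 of 6 against 12.6% in the same order. Median UMIs per positive and negative cell were 2232 and 1881.5, 2069 and 2080, and 4186.5 and 2033.

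Of the 12 T helper cytokines and regulators listed, 10 could be tested in T cells of IL-1a TNFa C1q EV+MAPS against UT EV+MAPS, with 1 higher and 0 lower and a median log2 ratio of −0.40 over those tested. Of all genes tested in T cells there, 0.779% were higher and 0.541% lower. The higher one was Il4, with 45 and 3 UMIs and a ratio of 7.69 (2.47 to 38.7). Over the 4 libraries only 14 of 3827 Csf2-negative T cells and 0 of 42 Csf2-positive ones held an Il4 UMI. The Il4 ratio thus rests on few cells, and it was not worked out without the highest cell. In IL-4 C1q EV+MAPS, 9 of the listed genes could be tested, with 1 higher, Il17f at 4.37 (2.42 to 8.45), and 2 lower, Tnf at 0.356 (0.240 to 0.518) and Ifng at 0.540 (0.480 to 0.607). The shares of all T cell genes were 0.835% higher and 0.319% lower.

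Csf3 (ENSMUSG00000038067), which encodes G-CSF, was scarce in the kept cells. It had 0 UMIs in MAPS and UT EV+MAPS, 1 in IL-1a TNFa C1q EV+MAPS and 5 in IL-4 C1q EV+MAPS. No difference between libraries can be read from 6 UMIs.

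Of 12 genes of CSF1 receptor signalling and myeloid identity, all 12 could be tested in microglia, and 0 were past 1.5-fold in either other EV library against UT EV+MAPS, where 0.474% of all genes in microglia were higher and 0.843% lower in IL-1a TNFa C1q EV+MAPS, and 1.15% and 0.619% in IL-4 C1q EV+MAPS, with medians on the log2 scale of −0.23 for IL-1a TNFa C1q EV+MAPS and 0.08 for IL-4 C1q EV+MAPS, beside −0.18 and −0.06 over all genes. Of 12 genes of the JAK-STAT relay and its feedback, 11 could be tested and 0 were called, with medians of −0.30 and −0.04. Against MAPS, 9 of these 11 were lower in each EV library, beside the 51.8% to 57.9% of all microglial genes given above. In UT EV+MAPS and in IL-4 C1q EV+MAPS 1 of them was higher. Of the 12 CSF1 receptor genes, 10, 10 and 9 were lower than in MAPS, and 1 was higher in each EV library. Of all microglial genes 8.35%, 8.69% and 7.56% were higher. Outside microglia, 1 of 10 tested genes of the CSF1 receptor list was higher in T cells of IL-1a TNFa C1q EV+MAPS than of UT EV+MAPS (Tyrobp, an adaptor of myeloid and NK cell receptors, 1.89), and the same gene, at 2.07, was 1 of 7 in astrocytes. Of all genes tested in T cells there, 0.779% were higher, and over all classes together 0.695%. In these T cells the monocyte/macrophage markers summed to 1432 CPM against 734 in UT EV+MAPS, and the neutrophil markers to 167 against 23.8. Their part in the Tyrobp ratio was not tested. Socs3, a feedback inhibitor that binds the G-CSF receptor, had 714 CPM in microglia of MAPS and 164, 112 and 149 in the EV libraries. Runx1, a transcription factor of myeloid development, had 287 CPM in MAPS and 60.7, 56.6 and 68.7.

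The genes whose levels ran most like those of each receptor were ranked by Pearson's r of log2(CPM + 10) over 53 pairs of class and library, as a description only, since the pairs share libraries. Csf1r ran with Pla2g15 (0.909), Ctsd (0.904) and Man2b1 (0.891), which encode lysosomal enzymes. Csf3r ran with Hcar2 (0.905), Trpm2 (0.901) and Slc16a3 (0.888), and Csf2rb with Ptafr (0.923), the platelet-activating factor receptor, Nfam1 (0.909) and Rab32 (0.899). Csf2ra ran with Ccl6 (0.899), Cd300a (0.884) and Igsf6 (0.878). Il34 ran with Gpc3 (0.976), Cd248 (0.968), a surface protein of pericytes and fibroblasts, and Pla1a (0.964). Csf1 had the weakest partners, Kcnj2 (0.764), Tspan14 (0.733) and Rhob (0.718).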

How the data were processed

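Cells of ipsilateral hemisphere tissue were profiled in 4 libraries with 10x 3′ v3 chemistry, per the labels' protocols. The authors deposited UMI counts per gene and barcode; the file headers give Cell Ranger 8.0.1, while the build GRCm39, bcl2fastq 5.0.1, Seurat 4.1.0 and an older Cell Ranger, 7.0.0, stand in the submitters' processing notes. Kept cells had 500 or more UMIs, 300 or more genes and no more than 20% of UMIs from mitochondria. A cell took the class with the largest share of its markers detected, given at least 3 markers and a margin of 0.2 over the next class; 5264 cells lay up to 0.1 below that margin and 6184 up to 0.1 above. Cells whose 2 best classes lay closer than the margin stay outside; classed cells can still hold markers of another lineage, and no doublet caller was run. UMIs were summed per class and library (Python 3.11.15, numpy 2.4.6, scipy 1.17.1), with exact Poisson, Clopper-Pearson and conditional binomial 95% intervals. A count of 0 allows up to 3 counts. Thinning drew 1000 UMIs per cell. All members were named, per list up to 4 called genes with the largest log2 ratio, and the 3 genes most alike per member. The ratio rule was tested on simulated data. Alternatives numbered 11 planned and 4 added after seeing the data. Members and lists were chosen with earlier results of these data known. An estimate of free microglial RNA is not reported here.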

Additional observations from a re-analysis of the deposited data

Results flagged for a closer look

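Cells outside every class, which enter no ratio, held UMIs of both scarce ligands above the count in MAPS. Csf3 had 5 UMIs in 4 such cells of IL-4 C1q EV+MAPS against 0 in MAPS. Csf2 had 36 UMIs in 7 such cells of IL-4 C1q EV+MAPS, 22 of them in 1 cell, 25 UMIs in 15 such cells of IL-1a TNFa C1q EV+MAPS and 25 UMIs in 7 of UT EV+MAPS, against 9 UMIs in 4 cells of MAPS. MAPS has fewer cells outside every class, 1112 against 2801 to 3525, and its share of them with a Csf2 UMI, 0.360%, lies within the 0.231% to 0.426% of the EV libraries. Of the 15 cells, 11 had T cell markers as their best match without the margin needed for the class.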

How the results depend on the processing

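Single ratios gave 608 values over 45 ratios and 14 settings. Of these, 556 kept the call and stayed inside the main interval, 37 left that interval, 9 lost the 1.5-fold call, 4 gained it and 2 reversed. Sides were compared only for called ratios, so an uncalled one can change side and count as kept. A minimum of 10 UMIs or of 10 cells leaves a tested ratio as it was, so their 45 and 45 kept values were fixed in advance. Under the 2-fold rule only the call can change, and 42 were kept. Scaling to the median ratio of all genes left 8 ratios past 1.5-fold against MAPS for each EV library (from 18, 19 and 18), and put Csf2ra in microglia at 1.05 for UT EV+MAPS and 1.09 for IL-1a TNFa C1q EV+MAPS. The share of all genes past the rule was not worked out under this scaling, under thinning or at any other changed setting. No background therefore stands beside the counts of this section, and they are not read as a result about the members. Thinning to 1000 UMIs left 10 against MAPS for each EV library, and 0 for IL-1a TNFa C1q EV+MAPS against UT EV+MAPS (from 2). In that last comparison a 2-fold rule also left 0, and 1 remained past the rule without the cell highest for a gene (added after seeing the data), with a gate margin of 0.1, with a margin of 0.3 and without cells above the 99th percentile of UMIs. For IL-4 C1q EV+MAPS against UT EV+MAPS, with 0 in the report, the count was 1 with a minimum of 10 UMIs (Csf1r in mural cells, 20 against 3 UMIs), 1 without the highest cell (Csf1r in border macrophages), 1 without cells above the 99th percentile (Csf3r in oligodendrocytes, 2.50) and 3 with a margin of 0.1 (Csf1r in border macrophages, 1.95, and in mural cells, 4.09, and Il34 in endothelial cells, 0.328). Apart from the changes that follow from fewer UMIs or a stricter rule, the cause was not tested. No paired analysis was possible because each group has 1 library. Depth limits Csf2, Csf3, Il34 and every gene in neutrophils and mural cells.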
